A study of Mus musculus with 20 samples.

Results

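Matrix metalloproteinases are the enzymes that cut the protein scaffold between cells. The 10 genes described here, *Mmp2*, *Mmp3*, *Mmp9*, *Mmp11*, *Mmp13*, *Mmp14*, *Mmp15*, *Mmp16*, *Mmp19* and *Mmp23*, were chosen by name, and they are 10 of the 54532 genes in the count table. These genes and the gene lists used below were chosen with earlier results of these data known. RNA was sequenced from the temporomandibular joint (TMJ), the hinge between the lower jaw and the skull, in mice. They were given vehicle, or tamoxifen to delete *Loxl2*, which encodes a lysyl oxidase that cross-links collagen and elastin. The condylar head was collected together with a portion of the subchondral bone, so cartilage and bone entered 1 library. The methods do not name marrow or attached soft tissue, but skeletal muscle genes were high in all libraries, as given below.

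All animals in both groups carried *Loxl2* fl/fl alleles and Acan-CreERT2, a tamoxifen-activated recombinase driven from the aggrecan locus that acts in cartilage cells. The 8 control animals were given vehicle. The 12 knockout animals (labelled LOXL2_KO) were given tamoxifen at 75 mg/kg, in 5 daily injections and then once a month. Treatment began at 6 months of age and tissue was collected 4 months later. By the study's methods each group held equal numbers of males and females, with 4 and 4 in control and 6 and 6 in knockout. The summed level of 4 Y-linked genes was at least 101 CPM in 6 of the 12 knockout libraries, but it was at least 107 CPM in only 3 of the 8 control libraries and 0.596 CPM or less in the other 5, which goes against 4 males in control. The 7 members called below passed also with these genes as a covariate. Tamoxifen and the deletion were always given together and cannot be told apart.

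Metalloproteinases are made as inactive precursors and are switched on when a propeptide is removed. Secreted collagenases such as *Mmp13* open the collagen triple helix, gelatinases such as *Mmp2* and *Mmp9* degrade the unwound chains, and membrane-bound members such as *Mmp14* work at the cell surface and activate other members. In the joint and its bone, *Mmp13* is made by hypertrophic chondrocytes and by osteoblasts and *Mmp9* by osteoclasts, the cells that resorb bone, and *Mmp13* is a standard marker of osteoarthritic cartilage.

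The regions upstream of *Mmp13*, *Mmp3* and *Mmp14* are shown because *Mmp13* and *Mmp3* lie in the same gene cluster and stood on different sides of the threshold in the test below, and *Mmp14* is a member outside that cluster with the smallest p. Each run is the 250 bases before the RefSeq start (GRCm38.p6), 5′ to 3′ on the gene's own strand. The *Mmp13* region is chr9:7272264-7272513, that of *Mmp3* is chr9:7445572-7445821 and that of *Mmp14* is chr14:54431348-54431597, all on the plus strand. Capitals mark matches to AP-1 (TGANTCA), RUNX (ACCACA) and ETS (AGGAAG) on either strand, and on the gene's strand to the TATA box, for which the letters searched were TATAAA.
Mmp13: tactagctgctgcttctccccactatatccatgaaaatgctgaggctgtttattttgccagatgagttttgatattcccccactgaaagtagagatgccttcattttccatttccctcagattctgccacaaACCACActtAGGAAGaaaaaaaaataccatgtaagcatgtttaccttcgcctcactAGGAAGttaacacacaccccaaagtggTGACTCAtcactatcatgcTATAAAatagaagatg
Mmp3: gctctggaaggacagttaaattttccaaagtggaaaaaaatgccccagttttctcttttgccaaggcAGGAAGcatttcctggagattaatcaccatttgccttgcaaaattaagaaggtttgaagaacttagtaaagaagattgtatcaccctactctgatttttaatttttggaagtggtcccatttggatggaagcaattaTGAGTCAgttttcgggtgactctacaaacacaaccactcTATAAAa
Mmp14: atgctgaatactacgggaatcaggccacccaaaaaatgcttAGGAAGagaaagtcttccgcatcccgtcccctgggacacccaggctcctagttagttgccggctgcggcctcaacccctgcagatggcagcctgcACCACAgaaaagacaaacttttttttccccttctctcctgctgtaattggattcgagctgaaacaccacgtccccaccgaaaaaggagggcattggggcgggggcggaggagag

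The *Mmp13* region held 5 matches. They were 1 RUNX match from -118 to -113 counted from the start, ETS matches from -109 and from -62, an AP-1 match from -35 to -29 and a TATA match from -16 to -11. The *Mmp3* region held an ETS match from -183, an AP-1 match from -46 to -40 and a TATA match from -7 to -2. The *Mmp14* region held an ETS match from -209 and a RUNX match from -114, with no AP-1 or TATA match. Of the other members with an entry in the RefSeq table, *Mmp23* had 1 RUNX match at its first start site, and *Mmp11* and *Mmp15* had none. Over all 32851 promoter regions of this length, 6.75% held AP-1, 14.0% RUNX, 29.5% ETS and 7.59% TATA. A match is a description of letters in this window.

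Library totals ran from 14177222 to 23795467 counts in control and from 11153820 to 27045668 in knockout, and levels are given as CPM, the count relative to the TMM-scaled library total. The floor of 3 counts stood for 0.269 CPM of the unscaled total where depth was lowest, which covers counting error only. Counted over the whole gene, control libraries held 64.5 ± 30.9 CPM (mean ± SD, n = 8) of *Loxl2* and knockout libraries 101 ± 26.9 CPM (n = 12), with an edgeR log2 fold change of 0.64 (SE 0.28) and an adjusted p of 0.101. *Loxl2* RNA was therefore not lower in the libraries labelled knockout, and the exons between the loxP sites were not examined separately. Directions below are those between the libraries as labelled. *Acan* and *Col2a1*, which define cartilage, were at 115 ± 99.7 CPM and 562 ± 403 CPM in control, with lowest values of 2.22 and 1.68 CPM. In knockout they were at 71.3 ± 65.4 CPM and 1110 ± 699 CPM, and neither differed past the threshold. Control replicate 8 had a mean log2 CPM of 0.1 over a list of cartilage markers, against 1.61 to 4.26 in the other control libraries. It was also the lowest library on a list of osteoblast and osteocyte markers, at 3.22. Skeletal muscle genes were high throughout, at 48000 to 169000 summed CPM for 12 genes in control and 34600 to 87300 in knockout, with 4 of 12 lower.

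All 10 members passed the filter on low counts. In edgeR's quasi-likelihood test with Benjamini-Hochberg adjustment over 15984 genes, 7 members rose in the knockout libraries, none fell, and 3 did not pass a threshold of 0.05. The 7 were *Mmp9*, *Mmp13*, *Mmp16*, *Mmp14*, *Mmp23*, *Mmp2* and *Mmp19*. Of all genes tested, 1918 were higher (12.0%) and 1755 were lower, which makes 23.0% called in either direction. The higher genes were 52.2% of all calls, and 72.0% when libraries were scaled by their totals alone. The median log2 fold change was 1.43 over the members and -0.02 over all genes. The share of counts from mitochondrial genes moved with the group, at 15.2% to 23.1% in control and 9.06% to 18.3% in knockout, and its part in the differences was not tested. In no member were the groups free of overlap, a state reached upward by 34 of the genes tested (0.213%). The plot of each member by library shows these levels.

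**Figure D1:**
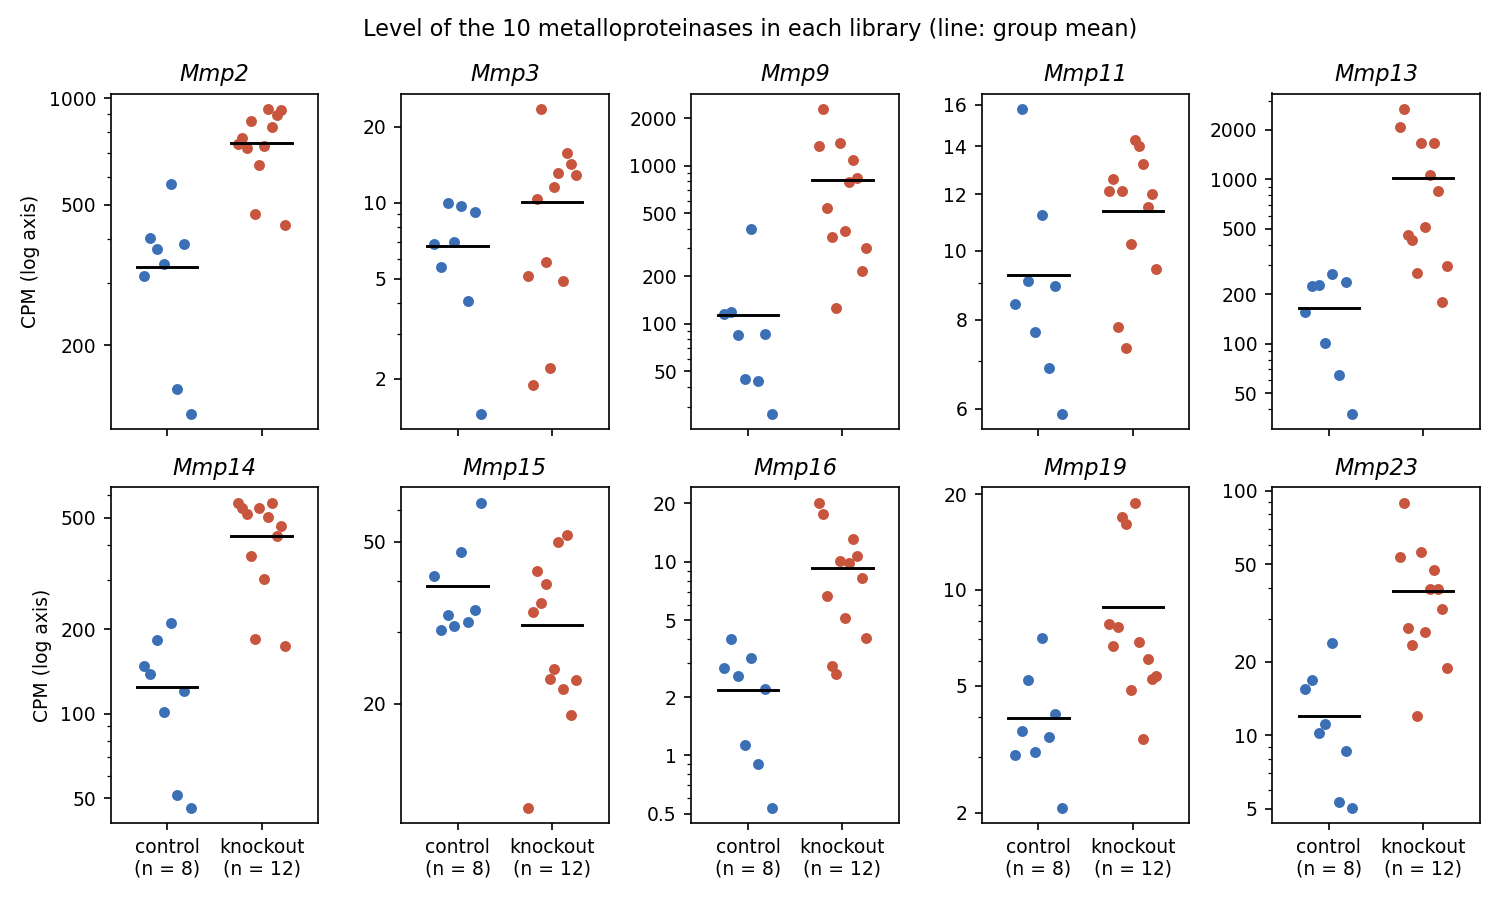
Each panel plots 1 gene, with CPM on a log axis and 1 point a library, in replicate order from left to right within the 8 control and 12 knockout libraries, and the line is the group mean. The knockout points of *Mmp9*, *Mmp13*, *Mmp14* and *Mmp16* reach far above the control points while the lowest of them overlap with control. Those of *Mmp3* run from the lower part of the control range to above it.

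*Mmp9*, the gelatinase of osteoclasts and neutrophils (ENSMUSG00000017737, chromosome 2, bases 164940780 to 164955850, plus strand, GRCm38), differed most. Control libraries ran from 26.9 CPM over a median of 85.2 to 396, and knockout libraries from 126 over a median of 665 to 2290. All 12 knockout libraries lay above the control median, and control replicate 5, the highest of its group, reached above the lowest knockout libraries. The log2 fold change was 2.81 (SE 0.57, adjusted p = 0.00258), a fold of 7.04, and 19 of the genes tested had a larger one. Without control replicate 5 it was 3.44, a fold of 10.8 (adjusted p = 0.000485). Its means were 114 ± 119 CPM (n = 8) and 806 ± 634 CPM (n = 12).

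*Mmp2*, the gelatinase of connective tissue cells (ENSMUSG00000031740, chromosome 8, 92827291 to 92853420, plus strand), was more even. It ran from 128 over 356 to 570 CPM in control and from 438 over 756 to 933 CPM in knockout. Only control replicate 5 lay above any knockout library, and 10 of 12 knockout libraries were higher than every control library. The difference was a log2 fold change of 1.17 (SE 0.23, adjusted p = 0.00215). The coefficient of variation in knockout was 21.8% for *Mmp2* and 78.7% for *Mmp9*.

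*Mmp13*, the collagenase that cleaves type II collagen (ENSMUSG00000050578, chromosome 9, 7272514 to 7283331, plus strand), ran from 37.5 over 190 to 265 CPM in control and from 179 over 680 to 2680 CPM in knockout. Knockout replicates 1, 2, 6 and 9 held 1650 to 2680 CPM, and knockout replicate 11, at 179 CPM, was the only one under the control median. Between the groups the log2 fold change was 2.62 (SE 0.53, adjusted p = 0.00254), a fold of 6.16. *Mmp13* heads a run of 10 metalloproteinase genes on chromosome 9 between bases 7272514 and 7699585. Only 4 of them had enough counts to be tested, and *Mmp13* was the only one called.

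*Mmp3*, the stromelysin that degrades proteoglycans and other matrix proteins (ENSMUSG00000043613, chromosome 9, 7445822 to 7455975, plus strand), is the other member in that run. It ran from 1.45 over 6.9 to 9.99 CPM in control and from 1.89 over 10.9 to 23.6 CPM in knockout. Only 7 of 12 knockout libraries lay above the control median, and the same 7 were above the highest control. The other 5, replicates 1, 2, 5, 6 and 9, held 1.89 to 5.8 CPM. Its log2 fold change was 0.58 (95% interval -0.27 to 1.43, adjusted p = 0.314), an interval that spans 0.

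Among the membrane-bound members, *Mmp14*, which activates the precursor of *Mmp2* (ENSMUSG00000000957, chromosome 14, 54431612 to 54445364, plus strand), had the smallest p of the members. Its levels were 46.1 over 129 to 211 CPM in control and 174 over 485 to 565 CPM in knockout. All knockout libraries except replicates 5 and 12, at 184 and 174 CPM, were above the highest control. The log2 fold change was 1.78 (SE 0.29, adjusted p = 0.00115).

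*Mmp16*, a membrane-type member that can also activate the precursor of *Mmp2* (ENSMUSG00000028226, chromosome 4, 17852893 to 18119145, plus strand), was scarce. It ran from 0.536 over 2.39 to 4.0 CPM in control and from 2.64 over 9.05 to 20.2 CPM in knockout. The log2 fold change was 2.08 (SE 0.42, adjusted p = 0.00246), and the knockout libraries 4 and 5, at 2.88 and 2.64 CPM, lay within the control range. *Mmp15*, another membrane-type member (ENSMUSG00000031790, chromosome 8, 95352268 to 95375080, plus strand), was the only member with a negative estimate. It ran from 30.4 over 33.5 to 62.4 CPM in control and from 11.1 over 29 to 51.9 CPM in knockout, with a log2 fold change of -0.32 (95% interval -0.79 to 0.16, adjusted p = 0.329). Its highest control library was replicate 8, the library in which all 7 called members were lowest.

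*Mmp23*, whose protein is anchored through its propeptide and released when that is cut (ENSMUSG00000029061, chromosome 4, 155650655 to 155653384, minus strand), ran from 5.05 over 10.7 to 23.8 CPM in control and from 12.0 over 36.2 to 89.4 CPM in knockout. All 12 knockout libraries lay above the control median. Its log2 fold change was 1.69 (SE 0.34, adjusted p = 0.00258).

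*Mmp19*, a secreted member of broad substrate range (ENSMUSG00000025355, chromosome 10, 128790910 to 128800824, plus strand), rose in another set of libraries. It ran from 2.07 over 3.54 to 7.08 CPM in control and from 3.4 over 6.78 to 18.8 CPM in knockout. Knockout replicates 4, 5 and 7 held 16.9, 16.1 and 18.8 CPM, while the other 9 held 3.4 to 7.83 CPM. Between the groups the log2 fold change was 1.16 (SE 0.32, adjusted p = 0.0138). Its exons share 789 bases with *Tmem198b* on the opposite strand, which itself rose by a log2 fold change of 0.52 (adjusted p = 0.024), and the use of strand in counting was not given in the sources used here, so reads in that stretch cannot be assigned.

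*Mmp11*, or stromelysin 3, which is activated inside the cell by furin (ENSMUSG00000000901, chromosome 10, 75923222 to 75936496, minus strand), was at 9.22 ± 3.09 CPM (n = 8) in control and 11.4 ± 2.26 CPM (n = 12) in knockout. Knockout was above the control median in 10 of 12 libraries. The log2 fold change was 0.30 (95% interval -0.04 to 0.64, adjusted p = 0.189). Without control replicate 2, the highest control library at 15.8 CPM, it was 0.47 and passed the threshold (adjusted p = 0.0293). It shares 155 exon bases with *Chchd10* on the other strand.

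An exact two-sided permutation test of mean log2 CPM over all 125970 assignments of the libraries gave the same 7 members, with values adjusted over the 10 members between 0.000238 and 0.00578. In bulk tissue, fewer cells of a type and less RNA per cell cannot be told apart, which holds for every level given here.

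The 7 called members did not rise in the same libraries to the same degree. Control replicate 8 was the lowest control for all 7, and control replicate 5 the highest for 6 of them. In the knockout group, replicates 5 and 12 were among the lowest 3 for 6 of the 7. Knockout replicate 2 was highest for *Mmp9*, *Mmp13* and *Mmp23*. With each of the 20 libraries left out in turn, all 7 stayed past the threshold.

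Levels were compared between members per length, as CPM per kb of exon. In control the order by mean log2 level was *Mmp2* (98.8 ± 42.1), *Mmp13* (61.5 ± 32.7), *Mmp9* (32.3 ± 33.5), *Mmp14* (20.9 ± 9.76), *Mmp15* (7.2 ± 2.07), *Mmp23* (5.14 ± 2.71), *Mmp3* (3.73 ± 1.65), *Mmp11* (3.32 ± 1.11), *Mmp19* (1.12 ± 0.439) and *Mmp16* (0.25 ± 0.14 CPM per kb, n = 8 each). Neighbours that could not be separated were *Mmp9* and *Mmp14*, *Mmp15* and *Mmp23*, *Mmp23* and *Mmp3*, and *Mmp3* and *Mmp11*. The other 5 neighbour pairs differed in an exact sign-flip permutation test within libraries (adjusted p from 0.0234 to 0.0422, with 0.00781 the smallest unadjusted p that 8 libraries allow).

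In knockout the order was *Mmp13* (378 ± 309), *Mmp2* (222 ± 48.4), *Mmp9* (228 ± 179), *Mmp14* (72.0 ± 23.8), *Mmp23* (16.6 ± 8.97), *Mmp15* (5.78 ± 2.38), *Mmp3* (5.61 ± 3.55), *Mmp11* (4.1 ± 0.812), *Mmp19* (2.49 ± 1.49) and *Mmp16* (1.07 ± 0.646 CPM per kb, n = 12 each). Neighbours that could not be separated were *Mmp13* and *Mmp2*, with *Mmp13* above in 6 of 12 libraries, *Mmp2* and *Mmp9*, *Mmp15* and *Mmp3*, and *Mmp3* and *Mmp11*. *Mmp13* was above *Mmp9* in 12 of 12 knockout libraries, a pair that was not tested because they are not neighbours in the order. *Mmp23* stood above *Mmp15* in 11 of 12 knockout libraries (adjusted p = 0.00439, exact sign-flip permutation), whereas in control *Mmp15* was above *Mmp23* in 6 of 8. The number of separated pairs depends on the gene length used: 5 with all exon bases, 3 with coding length and 2 with the longest transcript.

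The summed level of the 10 members was 234 ± 114 CPM per kb (n = 8) in control and 935 ± 519 CPM per kb (n = 12) in knockout. *Mmp2* supplied 43.2% ± 4.81 of it in control (37.9% to 54.0%) and 29.6% ± 13.0 in knockout (11.3% to 53.5%). *Mmp13* supplied 25.2% ± 5.8 and 35.4% ± 11.7, and *Mmp9* 12.1% ± 5.72 and 21.7% ± 6.42. The share of *Mmp14* was close to level, at 9.03% ± 1.36 and 8.72% ± 2.97. In the plot of shares by library, *Mmp2* had an SD of 4.81 percentage points among control and 13.0 among knockout libraries, and *Mmp15* one of 3.97 and 0.57.

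**Figure D2:**
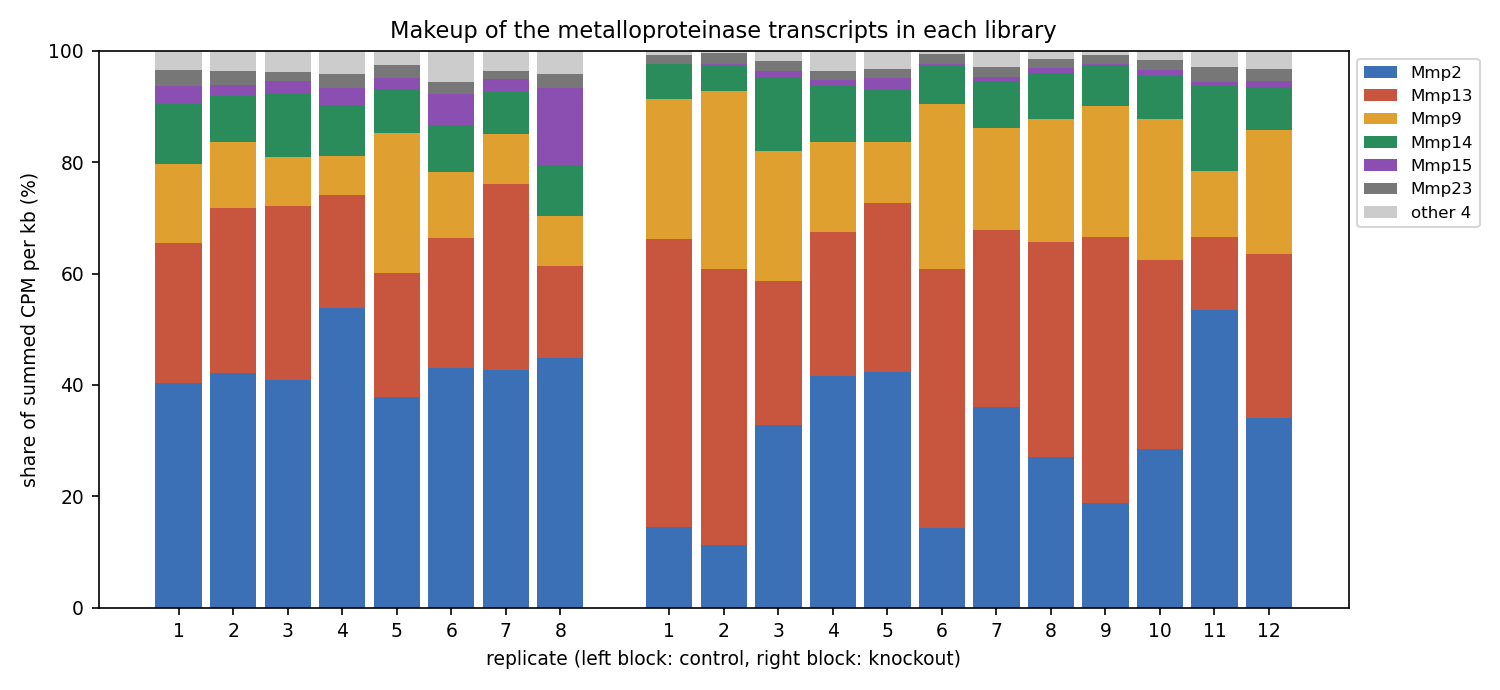
Stacked bars give each member's share, in percent, of the summed CPM per kb of the 10 members, with 1 bar a library (left block the 8 control, right block the 12 knockout libraries). The *Mmp2* share is between 37.9% and 54.0% in control and falls as low as 11.3% in knockout, where *Mmp13* and *Mmp9* take up most of the rest.

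Ratios between members within a library do not depend on how libraries are scaled. Of the 45 pairs, 23 ratios differed between the groups in an exact permutation test (adjusted over 45 pairs), among them 7 of the 21 pairs in which both members were called. *Mmp9* gained on *Mmp2* by 1.58 on the log2 scale (log2 *Mmp2* to *Mmp9* ratio 1.87 ± 0.69 in control and 0.30 ± 1.15 in knockout, difference -1.58, adjusted p = 0.00933, exact permutation). It also gained on *Mmp14* (0.99, adjusted p = 0.0316, exact permutation) and on *Mmp23* (1.17, adjusted p = 0.00269, exact permutation). *Mmp14* gained on *Mmp2*, the precursor of whose protein it activates, with a *Mmp2* to *Mmp14* difference of -0.58 (adjusted p = 0.00769, exact permutation). The ratio of *Mmp9* to *Mmp13* moved by 0.45, which did not pass (adjusted p = 0.101, exact permutation).

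Within groups, *Mmp9* varied together with *Mmp23* and *Mmp13*, at a Pearson r of 0.92 and 0.91 over the 20 libraries after the group means were removed. *Mmp16* and *Mmp23* had an r of 0.89, and *Mmp2* and *Mmp14* of 0.86. These points share library depth and tissue makeup, and they are given as a description. *Mmp3* and *Mmp19* each had a positive r with *Mmp9*, *Mmp13*, *Mmp14*, *Mmp16* and *Mmp23* in control and a negative one in knockout. For *Mmp3* with *Mmp13*, r was 0.89 in control, 0.77 there without replicate 8, and -0.68 in knockout. For *Mmp19* with *Mmp16*, r was 0.67 in control, 0.42 there without replicate 8, and -0.63 in knockout. The difference between the groups in these correlations was not tested, and leaving out control replicate 8 was chosen after its values were seen.

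**Figure D3:**
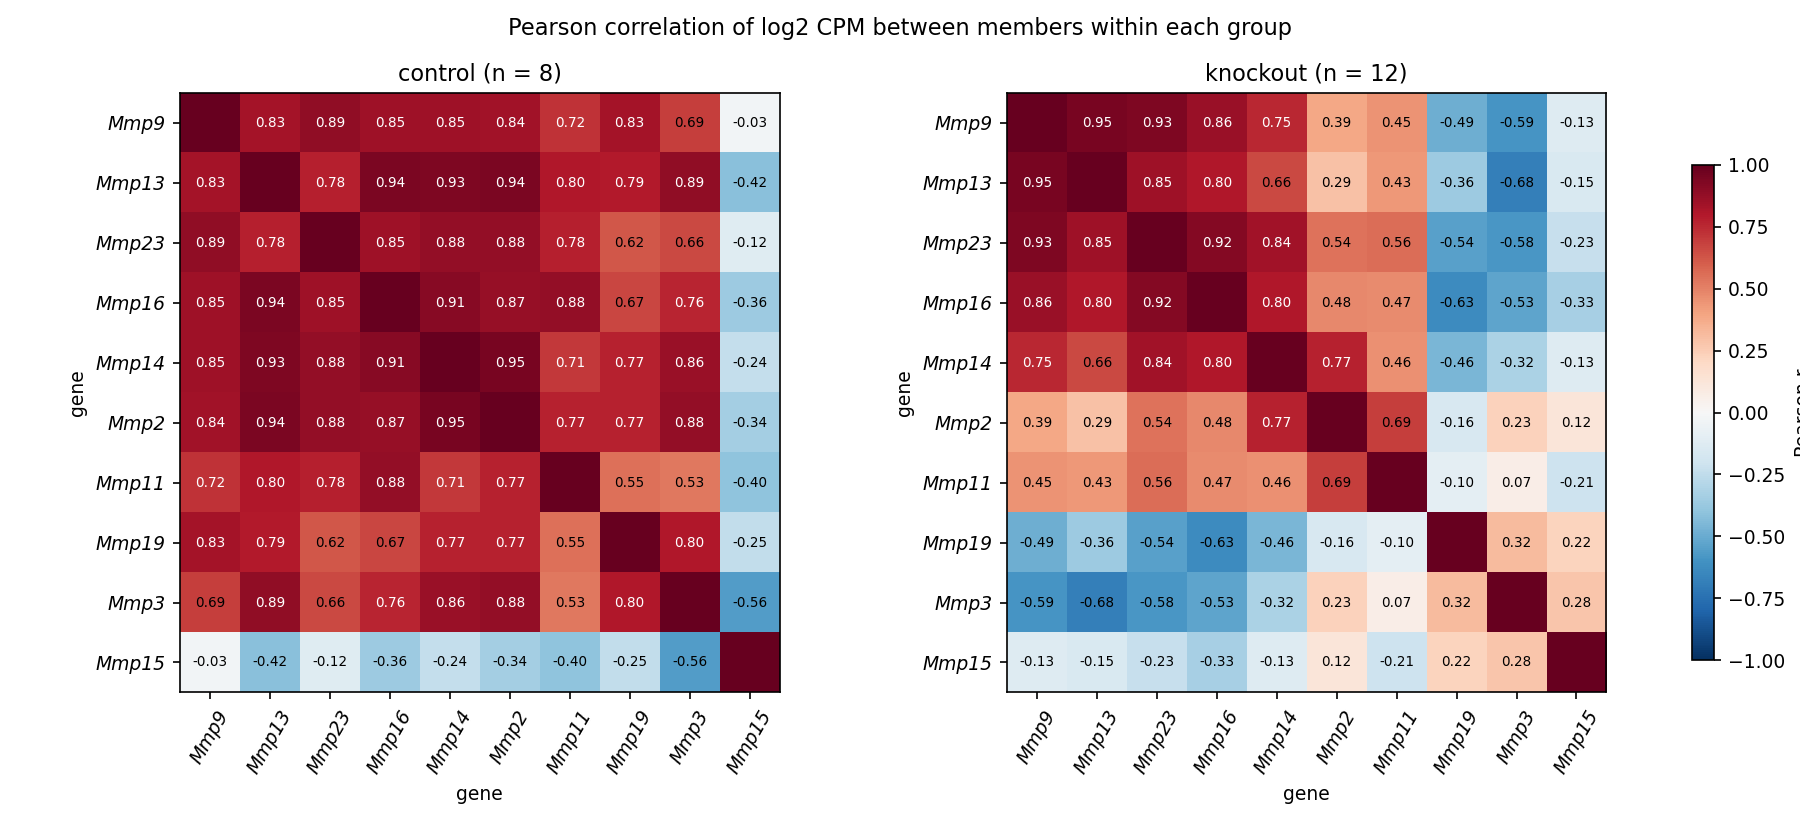
Pearson correlation of log2 CPM between each pair of members, on the left over the 8 control and on the right over the 12 knockout libraries, with the color scale from -1 to 1. *Mmp9*, *Mmp13*, *Mmp23*, *Mmp16* and *Mmp14* keep an r of 0.66 or more with each other in both panels, while the *Mmp3* and *Mmp19* cells for these genes are positive in control and negative in knockout.

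By the fixed rule, the 3 protein-coding genes most like each member were taken from 13948 tested genes by r within groups over 20 libraries. For *Mmp9* they were *Acp5* (0.99), the tartrate-resistant acid phosphatase of osteoclasts, *Atp6v0d2* (0.98), a proton pump subunit, and *Slc9b2* (0.98), a sodium-proton exchanger. For *Mmp13* they were *Snx10*, *Serpine2* and *Foxc2* (0.93 each). *Mmp14* was closest to *Sh3pxd2b* (0.93), a scaffold of the protrusions that carry surface proteases, *Vasn* (0.93) and *Cep164* (0.92).

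*Mmp2* was closest to *Srpx2* (0.95), *Slc2a10* (0.95) and *B3gnt9* (0.94). The genes closest to *Mmp16* included *Gxylt2* (0.96) and *Nrp2* (0.95). *Mmp23* was closest to *Rcn3* (0.96), *Tmem119* (0.96) and *Col1a1* (0.95), the last encoding the main collagen chain of bone. *Mmp19* was closest to *Nox4* (0.89), *Angptl1* (0.88) and *Fbn1* (0.87), and *Mmp3* to *2010111I01Rik* (0.89), *Tgfb2* (0.85) and *Mgp* (0.83). The neighbours of *Mmp11* were *Shc1* (0.82), *Selenon* (0.81) and *Marveld1* (0.81), and those of *Mmp15* were *Arhgef37* (0.85), *Foxd3* (0.80) and *Sema3g* (0.78).

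Osteoclast genes moved with the members. Of 13 osteoclast markers, 12 rose and none fell, beside 12.0% of all genes that were higher. The summed level of the markers was 240 to 1260 CPM in control and 656 to 6320 CPM in knockout, with no marker at 0 in all libraries. Within the knockout group, the mean log2 CPM of this list, which holds no member, followed *Mmp9* (r = 0.99, Spearman's rho 1.0, r 0.99 without the 2 farthest libraries) and *Mmp13* (r = 0.95, rho 0.96, r 0.96 without them). In a permutation test both had p = 1e-05, the smallest that 100000 resamples can give (adjusted p = 0.0005 over 100 relations). *Mmp23* (r = 0.92, rho 0.93), *Mmp16* (r = 0.83, rho 0.87) and *Mmp14* (r = 0.72, rho 0.80) passed as well, at permutation adjusted p of 0.00125, 0.0112 and 0.032 for r. *Mmp2* did not (r = 0.31, rho 0.13, permutation adjusted p = 0.377), nor did *Mmp19* (r = -0.46, rho -0.31, permutation adjusted p = 0.18).

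In control, *Mmp9* followed the osteoclast list (r = 0.95, rho 0.90, r 0.95 without the 2 farthest libraries, exact permutation adjusted p = 0.011). The *Mmp19* relation in control (r = 0.84) passed for r but not for rho (0.67, exact permutation adjusted p = 0.0427 and 0.185). With the osteoclast list as a covariate in the same model, the log2 fold changes were 0.13 for *Mmp9*, -0.07 for *Mmp13*, 0.20 for *Mmp23* and 0.37 for *Mmp16*, while they were 0.72 for *Mmp2*, 0.83 for *Mmp14* and 1.38 for *Mmp19*. None of the 10 members passed in that model (adjusted p from 0.528 to 0.986), and no gene at all did in edgeR, where 1340 genes had an unadjusted p under 0.05. The group explains 57.9% of the variance of the list, whose mean log2 CPM ran from 2.59 to 4.88 in control and from 3.89 to 6.96 in knockout. Because the covariate itself changes with the group, this model cannot tell osteoclast content and group apart.

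**Figure D4:**
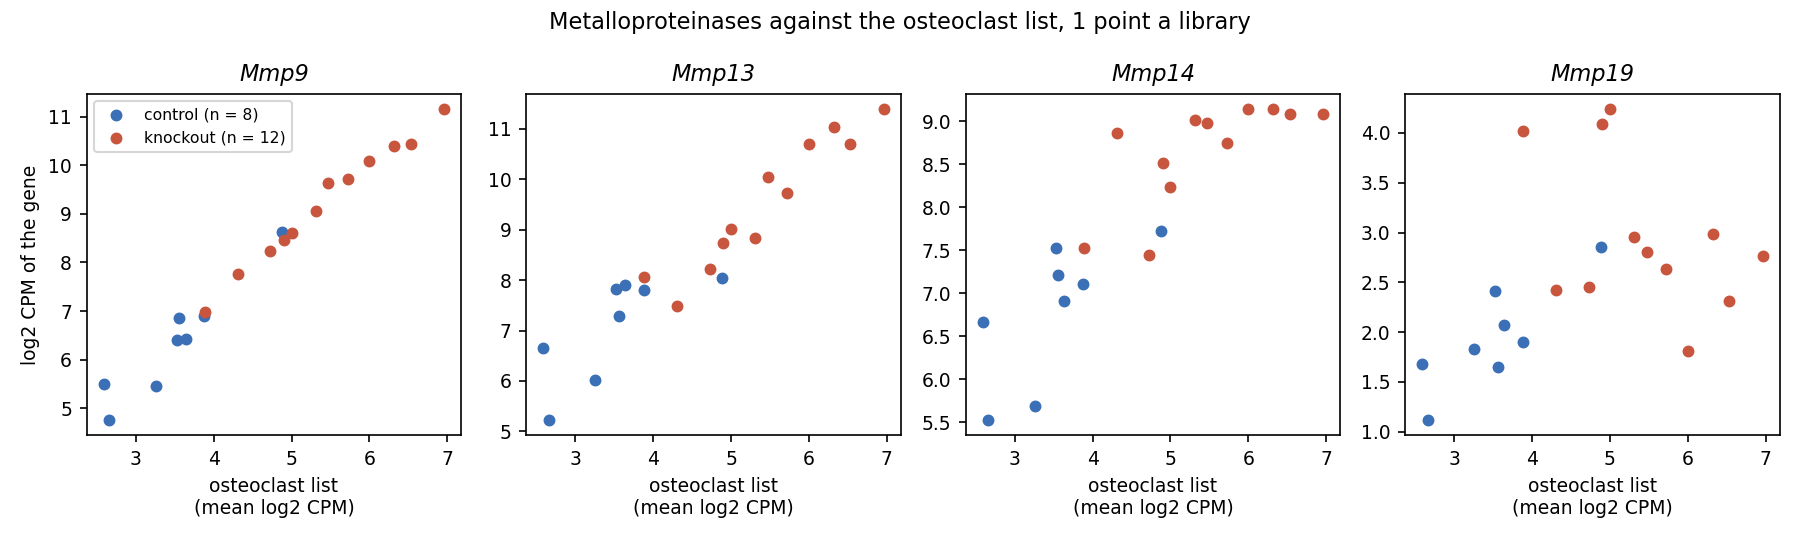
Each point is 1 library, with the mean log2 CPM of 13 osteoclast markers on the x axis and the log2 CPM of *Mmp9*, *Mmp13*, *Mmp14* or *Mmp19* on the y axis, control in blue (n = 8) and knockout in red (n = 12). *Mmp9* rises with the list in both groups (r = 0.95 in control and 0.99 in knockout), and the 3 highest knockout libraries of *Mmp19* lie at 3.89 to 5.0 on the list, in the lower part of its knockout range.

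Bone-forming cell genes moved as well, to be read beside the 12.0% of all genes that were higher. Of 12 osteoblast and osteocyte markers 7 rose and none fell (1320 to 12400 summed CPM in control, 4040 to 39100 in knockout). Relations with this list passed for r in 7 members in control and 6 in knockout, against 2 and 5 for the osteoclast list. For rho, those with this list passed only for *Mmp2*, *Mmp9* and *Mmp13* in control and *Mmp9*, *Mmp13*, *Mmp16* and *Mmp23* in knockout. The osteoclast list passed for rho in *Mmp9* alone in control, and in knockout in the same members as for r. In control the relations with the bone-forming list included *Mmp2* (r = 0.98, rho 0.90, r 0.92 without the 2 farthest libraries, exact permutation adjusted p = 0.007) and *Mmp13* (r = 0.95, rho 0.93, r 0.70, exact permutation adjusted p = 0.00446). In knockout the list followed *Mmp16* (r = 0.89, rho 0.91, r 0.84 without the 2 farthest libraries, permutation adjusted p = 0.001) and *Mmp23* (r = 0.83, rho 0.83, r 0.70, permutation adjusted p = 0.007). The list also followed *Mmp9* (r = 0.81, rho 0.79, permutation adjusted p = 0.01 and 0.0253). The same held for *Mmp13* (r = 0.67, rho 0.80, permutation adjusted p = 0.0427 and 0.025), so neither gene went with the osteoclast list alone. *Mmp19* ran against it (r = -0.76, permutation adjusted p = 0.0249), but its rho of -0.34 did not pass (permutation adjusted p = 0.421). The fibroblast and synovium list, with 4 of 10 genes higher, went with *Mmp19* in control (r = 0.85, rho 0.95, r 0.79 without 2 libraries, exact permutation adjusted p = 0.0244 and 0.0179). In knockout r was 0.80 and rho 0.69, and the latter did not pass (permutation adjusted p = 0.0209 and 0.0722). Relations with the cartilage list passed for r in 5 members in control, and none of these passed for rho (exact permutation adjusted p from 0.295 to 0.545). Without the 2 farthest libraries, r went from 0.92 to 0.01 for *Mmp2* and from 0.91 to -0.3 for *Mmp3*. It went from 0.87 to -0.42 for *Mmp13*, from 0.81 to -0.42 for *Mmp16* and from 0.79 to 0.1 for *Mmp23*. In knockout *Mmp19* alone passed for r (-0.79, permutation adjusted p = 0.0193), but not for rho (-0.7, permutation adjusted p = 0.0669).

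Other cell type lists can be read against the 12.0% of all genes that were higher. Of 10 macrophage markers 8 rose, and of 6 tested mast cell markers 5 rose. Of 9 tested neutrophil markers 1 passed as higher, a share near that of all genes. All 9 had a positive estimate, with a median log2 fold change of 2.14 and SE of 0.79 to 1.02. Of 12 tested cartilage markers 3 rose, and none of 8 endothelial or 5 tested adipocyte markers passed. In a model that includes the skeletal muscle list, 6 of the 7 called members still passed, and *Mmp13* was at 1.58 (adjusted p = 0.0508). The part of these cell types in the members' differences was not tested beyond those 2 models, whose estimates stand side by side in the plot of fold changes.

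**Figure D5:**
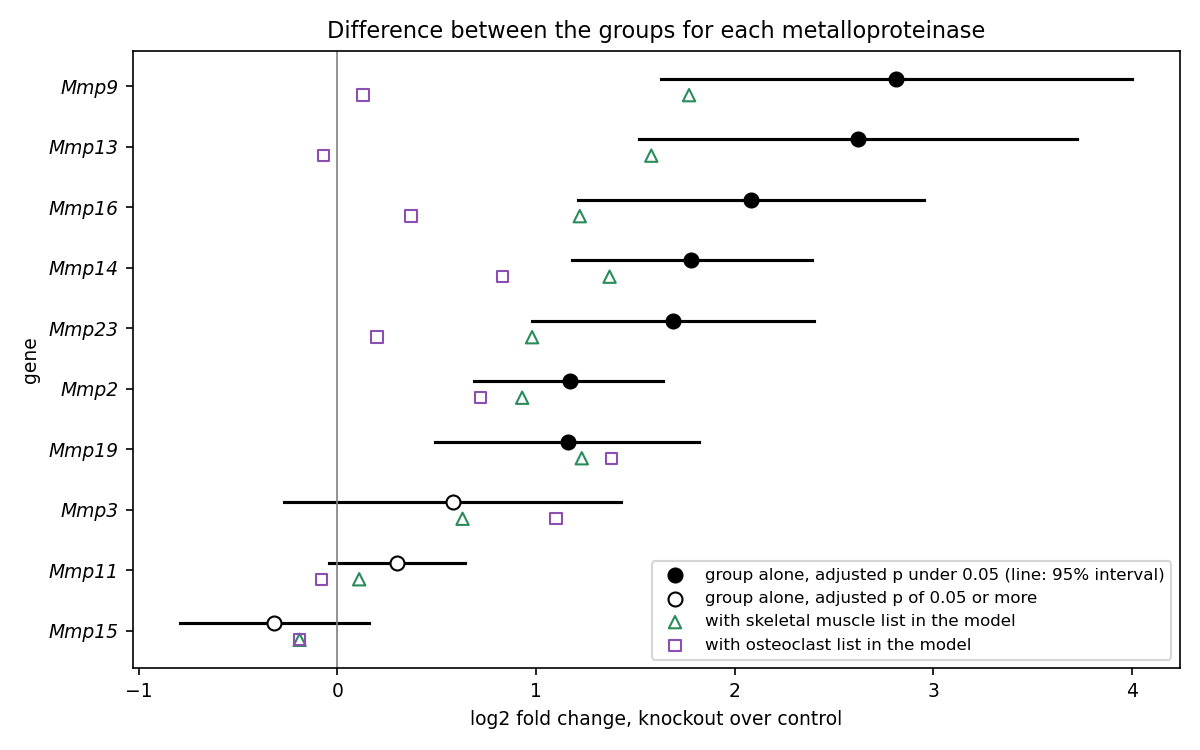
Log2 fold change of each member, knockout over control, with circles for the model with group alone (filled where the adjusted p is under 0.05, line for the 95% interval), triangles for the model with the skeletal muscle list and squares for the model with the osteoclast list. The squares of *Mmp9*, *Mmp13* and *Mmp23* sit near 0, at 0.13, -0.07 and 0.20, and that of *Mmp19* is at 1.38, to the right of its circle.

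The rest of the family was sparse. Of 13 further metalloproteinase genes, 9 failed the filter on low counts and none of the 4 tested passed the threshold. These were *Mmp8*, the neutrophil collagenase (0.799 ± 0.667 CPM in control and 2.72 ± 4.36 in knockout, log2 fold change 1.78, adjusted p = 0.104), *Mmp12*, the macrophage elastase (0.64), *Mmp17* (0.50) and *Mmp28* (0.28, at 7.16 ± 2.28 and 8.67 ± 2.45 CPM). The log2 fold change of *Mmp8* was 0.97 without knockout replicate 3, and that of *Mmp12* was 1.74 without control replicate 5. *Mmp1b* and *Mmp7* had no count in any library, which allows up to 3 counts each. *Mmp24* had 291 counts in control replicate 1 and 0 to 14 in every other library. With no filter it was the only gene of this group called (log2 fold change -3.15, adjusted p = 0.0177), a value that rests on that library. *Mmp1a*, *Mmp10*, *Mmp20*, *Mmp21*, *Mmp25* and *Mmp27* were the others left out by the filter.

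Inhibitors of these enzymes rose in part. Of 7 inhibitor genes 6 were tested, 2 rose and none fell, beside 12.0% of all genes that were higher. *Timp1*, a secreted inhibitor that binds the precursor of *Mmp9*, was at 29.5 ± 12.8 CPM in control and 84.6 ± 24.4 CPM in knockout (log2 fold change 1.52, SE 0.26, adjusted p = 0.00128). *Timp2*, which bridges *Mmp14* and the precursor of *Mmp2*, was at 380 ± 128 and 683 ± 148 CPM (0.84, SE 0.19, adjusted p = 0.00437). *Timp3* (0.10), the membrane-anchored *Reck* (0.49), *Timp4* (-0.73) and *A2m* (-0.27) did not pass, and *Pzp* was left out by the filter.

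Of 19 activators and binding partners 18 were tested, 8 rose and none fell, beside 12.0% of all genes that were higher. The protease *Ctsk* of osteoclasts, itself among the osteoclast markers, had the largest change (163 ± 119 and 1050 ± 765 CPM, log2 fold change 2.68, adjusted p = 0.0014). It was followed by *Dmp1* (1.79), a bone matrix protein, *Plaur* (1.35), the urokinase receptor, *Mrc2* (1.24), a receptor that takes up cleaved collagen, and *Cd44* (1.11), a hyaluronan receptor that docks *Mmp9*. *Lrp1* (0.74), which clears metalloproteinases from the surroundings, and the proprotein convertases *Furin* (0.49) and *Pcsk7* (0.24) completed the 8. *Pcsk5* (0.49), *Pcsk6* (0.72), *Plau* (-0.03), *Plat* (0.61), *Lcn2* (2.14), *Bsg* (-0.15), *Spp1* (0.99), *Ibsp* (0.94), *Cd151* (-0.16) and *Cav1* (-0.19) did not pass, and *Plg*, which encodes plasminogen, was left out by the filter.

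Of 18 matrix substrates 9 rose and none fell, with a median log2 fold change of 0.80. This count and that of the regulators stand beside the 12.0% of all genes that were higher. The 3 substrates with the largest change were *Col1a1* (3240 ± 2970 CPM in control and 18300 ± 9540 in knockout, 2.50), *Col1a2* (2.19) and *Col11a1* (2.15), all collagen chains. Of 26 regulators, 23 were tested, 9 rose and 1 fell. *Tnfrsf11a* (2.02), the receptor for the osteoclast signal RANKL, *Fos* (1.28) and *Fosl2* (1.11), both AP-1 subunits, rose most. *Mef2c*, a transcription factor of muscle and of hypertrophic cartilage, fell by 0.36 (adjusted p = 0.0129). The cytokines *Tnf*, *Il1b* and *Il6* were left out by the filter on low counts.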

How the data were processed

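RNA-seq of TMJ tissue gave 20 libraries, taken here as 1 library an animal, with groups and replicate numbers from the sample titles. The values deposited are raw read counts for each Ensembl gene, which the authors made by mapping paired reads to mm10 and counting with featureCounts. The aligner and the strand setting are not given in the sources used here. Symbols, exons and coordinates came from GENCODE M21 (54495 of 54532 identifiers matched), and promoter regions from a table of RefSeq starts (GRCm38.p6), in which 6 of the 10 members were matched. Promoter regions of *Mmp2*, *Mmp9*, *Mmp16* and *Mmp19* were not analysed here.

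Counts were filtered with filterByExpr, scaled by TMM and tested with edgeR 4.0.16 in R 4.3.3 (quasi-likelihood F-test, two-sided, Benjamini-Hochberg adjustment over all genes, threshold 0.05), which was tested on simulated data. SE values were derived from the F statistic, and 95% intervals from its degrees of freedom. CPM values use TMM-scaled totals, and log2 CPM has a prior count of 2. Single values were compared by exact permutation over libraries, and correlations within each group by 40320 pairings in control and 100000 resamples in knockout, in Python 3.11.15 with scipy 1.17.1.

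The members and the gene lists were chosen with earlier results of these data known. The genes named are the 10 members, every gene of the other metalloproteinase, inhibitor and activator lists, the 3 called substrates and regulators with the largest change in each direction, and the 3 genes most like each member, 1 of which is not reported here. Alternatives were DESeq2 1.42.0, other scalings, filters and gene lengths, covariates, a replicate block, and leaving out each library. Nothing in the labels gives a batch. The smallest chi-square between any pair of libraries was 32.9 per degree of freedom, so no library was a copy of another. Replicates are separate animals by the study's methods.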

Additional observations from a re-analysis of the deposited data

Results flagged for a closer look

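*Mmp3* in control had 1 library far from the others. Control replicate 8 was at 0.64 log2 CPM, the next lowest at 2.07 and the highest at 3.34, so that its gap to the nearest library was 0.528 of the group's range, just past the limit for 8 libraries. This library was also the lowest control for all 7 called members, and the lowest library on the list of cartilage markers (mean log2 CPM 0.1). Chance marks about 1 in 20 groups, and 20 member and group combinations were examined. Without this library the log2 fold change of *Mmp3* was 0.45 (adjusted p = 0.47).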

How the results depend on the processing

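The 7 called members kept their call under every other setting of scaling, test, filter and dispersion tried, with Y-linked genes as covariate, and in all 20 fits without 1 library. Over all genes, 3673 passed; without 1 library each it was 2551 to 4181 and that of the members 7 to 8, the eighth being *Mmp11*. With library totals alone the median of all genes was 0.12 and 3037 passed. The count over all genes was 1002 with the skeletal muscle list as covariate and 0 with the osteoclast list, where 1340 genes had an unadjusted p under 0.05 and 0 members passed. No source used here says that same-numbered libraries are paired. Their correlation ran from -0.36 to 0.17 over 8 pairs and none matched its own number best. So few pairs cannot decide whether they share more than a number. A replicate block on the 16 libraries with shared numbers gave 1786 genes, against 3280 in the same libraries without it, and 7 members in both. Separated neighbour pairs in the level order were 5 in each group, 3 to 4 in control and 5 in every case in knockout without 1 library, and in knockout 3 with coding length and 2 with the longest transcript. The 2 covariate lists themselves differ with the group, and the cause of the other shifts was not tested.

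Some log2 fold changes turned direction. With the osteoclast list they were -0.08 for *Mmp11*, -0.07 for *Mmp13*, -0.55 for *Mmp17*, -0.66 for *Timp3*, 0.11 for *Timp4*, -0.23 for *Reck*, 0.01 for *Plau*, 0.13 for *Bsg*, -0.24 for *Spp1*, -0.73 for *Ibsp*, -0.21 for *Dmp1*, 0.11 for *Cd151* and 0.22 for *Cav1*. With the skeletal muscle list they were -0.44 for *Timp3*, 0.04 for *Plau*, 0.02 for *Bsg* and -0.07 for *Ibsp*. With the replicate block they were -0.19 for *Timp3*, 0.57 for *A2m* and 0.05 for *Plau*, which was 0.06 in the same libraries without the block. With Y-linked genes as covariate they were -0.08 for *Mmp12* and 0.40 for *A2m*, and with library totals alone 0.10 for *Plau* and 0.01 for *Bsg*. Without 1 library, *Timp3* ran from -0.01 to 0.26, *A2m* from -0.96 to 0.74 and *Plau* from -0.10 to 0.09. *Dmp1*, *Mef2c* and *Col11a1* lost their calls with the replicate block (1.52, -0.43 and 2.05, adjusted p = 0.203, 0.0538 and 0.0885) and with the skeletal muscle list (0.80, -0.29 and 1.10, adjusted p = 0.295, 0.0967 and 0.0893). *Mef2c* lost it with library totals alone (adjusted p = 0.0798) and *Lrp1* with the skeletal muscle list (0.66, adjusted p = 0.0845), where 5 activators passed. *Pcsk7* lost its call with no filter (adjusted p = 0.0726), with the muscle list (0.175), in the 16 libraries with or without the block, and in 7 of the 20 fits without 1 library. In the other direction, *Pcsk6* gained a call with library totals alone (0.87, adjusted p = 0.0445) and in DESeq2's Wald test (0.71, adjusted p = 0.0318). Without 1 library, *Pcsk6* stayed uncalled in 17 of the 20 fits, and *Timp4* and *Loxl2* in 19 each. In its remaining fit *Loxl2* was called higher in the libraries labelled knockout (edgeR adjusted p = 0.0313). Counts limit *Mmp16*, *Mmp3* and *Mmp19*, which held as few as 7, 19 and 27 counts in a library.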
